A study of Mus musculus with 4 samples.

Results

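The 7 mature miRNAs described here are the arms of the miR-150, miR-142a, miR-155, miR-146a, miR-146b and miR-223 hairpins that are best known from blood and immune cells. They were taken by name from the 1907 mature miRNAs of a small RNA-seq table. They were chosen by what is known of them and with their RPM values and changes in all 4 of these libraries in view, so those values are a description, without a test. The names are mmu-miR-150-5p, mmu-miR-150-3p, mmu-miR-142a-5p, mmu-miR-155-5p, mmu-miR-146a-5p, mmu-miR-146b-5p and mmu-miR-223-3p.

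The cells were E14Tg2A, a mouse embryonic stem (ES) cell line of the 129/Ola strain grown on gelatin. "Serum" ES cells were kept with 10% fetal calf serum and LIF (1000 U/mL), and "2iL" ES cells in a serum-free medium with LIF, the MEK inhibitor PD0325901 (1 μM) and the GSK3 inhibitor CHIR99021 (3 μM). Epiblast-like aggregates (ELA) were made from each by 2 days of floating culture in a minimal medium without LIF or inhibitors, so the medium name of an ELA library is that of the ES cells it came from. Each of the 4 groups (ES serum, ES 2iL, ELA serum, ELA 2iL) is 1 library of RNA pooled from 3 sets of experiments, so replicate error is unknown throughout. Groups follow the sample titles, while the description field exchanges ES 2iL and ELA serum. If these libraries were exchanged, the miR-150-5p difference would lie between the media, and that of miR-146a-5p between ES cells and ELA. From 587363 (ELA 2iL) to 8056984 (ES serum) miRNA reads were counted per library. Levels are reads per 1000000 miRNA reads (RPM), and a floor of 3 reads equals 0.372 RPM in ES serum and 0.696 RPM in ELA serum, against 1.08 RPM in ES 2iL and 5.11 RPM in ELA 2iL. All intervals are 95% intervals that cover counting error only.

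A miRNA is cut from a hairpin whose arms give a 5p and a 3p strand. Usually 1 of them is kept by Argonaute and pairs through its seed, bases 2 to 8, with messenger RNAs that it represses. miR-150 accumulates in mature lymphocytes and limits the transcription factor Myb. miR-142 is made throughout the blood lineages, and miR-223 in myeloid cells. miR-155 comes from the Bic transcript and is induced in activated lymphocytes and macrophages. miR-146a and miR-146b are induced by inflammatory signalling through NF-κB and dampen it by targeting Traf6 and Irak1. In the study, miR-150-5p was also transfected with a reporter of Kdm2b, a histone demethylase.

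The mature sequences show which of these miRNAs can act on the same targets and which could exchange reads. RefSeq (GRCm38.p6) gave a sequence for 6 of the 7, and mmu-miR-150-5p was not matched. They are written 5′ to 3′ with the seed in capitals:

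mmu-miR-150-3p: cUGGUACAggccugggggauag

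mmu-miR-142a-5p: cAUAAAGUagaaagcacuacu

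mmu-miR-155-5p: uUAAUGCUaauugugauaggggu

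mmu-miR-146a-5p: uGAGAACUgaauuccauggguu

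mmu-miR-146b-5p: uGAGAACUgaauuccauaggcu

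mmu-miR-223-3p: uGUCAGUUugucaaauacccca

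The 6 sequences held 5 seeds, since miR-146a-5p and miR-146b-5p share theirs. These 2 miRNAs are identical over the first 17 bases and differ at 2 positions, G18A and U21C (the base of miR-146a-5p, the position from the 5′ end, the base of miR-146b-5p). How the authors treated reads that match both was not stated, so the division of reads between them is uncertain. None of the other 4 seeds occurred in another listed miRNA with a sequence in the table (1623 of the 1907 had one). GC content ran from 33.3% in miR-142a-5p to 63.6% in miR-150-3p.

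The hairpins lie on 5 chromosomes of mm9, the build used by the authors, and none sits next to another. Mir150 lies between genes on the plus strand of chromosome 7 (52377127 to 52377191). Mir142 lies in an intron of the non-coding transcript A430104N18Rik on chromosome 11 (87570366 to 87570429, plus strand). Mir146, the miR-146a hairpin, is intergenic on the minus strand of the same chromosome (43187899 to 43187963). Mir146b lies in an intron of the coding gene Tmem180 on chromosome 19 (46417252 to 46417360, plus strand). Mir155 is in an exon of its long non-coding host on chromosome 16 (84714385 to 84714449, plus strand), and Mir223 in an exon of the non-coding transcript F630028O10Rik on chromosome X (93438156 to 93438265, plus strand).

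The blood-lineage miRNAs together made up a small part of each library. In serum their share of the reads was 0.177% in ES cells (Wilson interval 0.175 to 0.180) and 0.127% in ELA (0.124 to 0.130). In 2iL it was 0.261% in ES cells (0.255 to 0.267) and 0.243% in ELA (0.231 to 0.256). miR-142a-5p, miR-146b-5p and miR-150-5p supplied 81.3% of these reads in ELA serum, 87.6% in ES serum, 97.97% in ES 2iL and 98.2% in ELA 2iL. Reads were found in all 4 libraries for 5 of the 7 miRNAs, the exceptions being miR-150-3p and miR-223-3p. A mean log2(RPM + 1) of at least 5 over the 4 libraries, a level limit set here after the study's on log2 RPM, was met by 302 miRNAs and by 4 of the 7 (miR-150-5p, miR-142a-5p, miR-146a-5p and miR-146b-5p). Nearest to the limit were miR-146a-5p inside it (6.10) and miR-155-5p outside it (4.16).

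**Figure D1:**
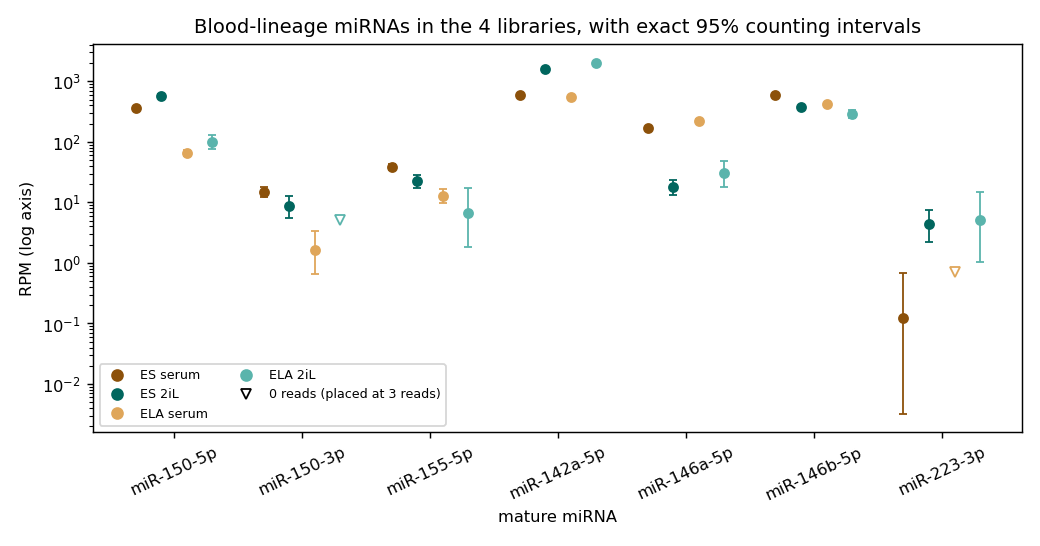
RPM (log axis) of the 7 miRNAs in the 4 libraries, 1 point per library, with exact 95% Poisson counting intervals and open triangles at the level of 3 reads for libraries with 0 reads. miR-150-5p, miR-150-3p and miR-155-5p are higher in ES cells than in the ELA derived from them, miR-146a-5p is higher in both serum libraries, and miR-142a-5p is higher in both 2iL libraries.

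The name "blood-lineage" was set beside 4 miRNAs that define blood cells, of which 1, miR-142a-5p, met the level limit, at 549 to 1999 RPM. Over all 1907 miRNAs, 302 (15.8%) met it, so nothing is read from this count. As miR-142a-5p and miR-223-3p are themselves among the 7, miR-451a is the one readable marker outside them. The list of markers was itself chosen with earlier results of these data known. miR-451a, which is specific to the erythroid lineage, measured 2.48 RPM in ES cells (20 reads) and 1.62 in ELA (7 reads) in serum, and 2.17 (6 reads) and 3.41 (2 reads) in 2iL. miR-223-3p reached at most 5.11 RPM. miR-142a-3p was listed at 0 in all 4 libraries. This is not read as absence, because the counting of overlapping annotations was not stated (see the hairpin arms below). Of the miRNAs known from pluripotent cells, miR-295-3p measured 35327 to 126073 RPM, while the 5 miR-302 and miR-367 strands ranged more widely, from 1.08 RPM (miR-367-3p in ES 2iL) to 16726 RPM (miR-302d-3p in ELA serum). The name is used for where the 7 miRNAs are known from, not for the cells in these cultures.

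Under library totals, the ES–ELA transition was the axis along which both arms of miR-150 and miR-155-5p differed most. For miR-155-5p the margin over the medium depended on scaling, as given below. In serum miR-150-5p measured 363 RPM in ES cells and 65.2 RPM in ELA, and in 2iL 581 RPM and 100.4 RPM. Both ES libraries were thus above both ELA libraries. The ELA level was 5.57-fold lower in serum (exact interval 4.93 to 6.32, 2927 against 281 reads) and 5.79-fold lower in 2iL (4.46 to 7.64, 1609 against 59 reads). On the log2(RPM + 1) scale the differences were −2.46 and −2.52, and in each medium 1.32% of the 302 miRNAs had a lower value. Among all 1907 miRNAs, miR-150-5p ranked 122 and 108 in the serum and 2iL ES cells, and 233 and 216 in the ELA derived from them. In bulk RNA, fewer cells carrying a miRNA and less of it per cell cannot be told apart.

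miR-150-3p, the minor strand of the hairpin, was lower in ELA as well, at a level about which less can be said. In serum it had 121 reads in ES cells (15.0 RPM) and 7 in ELA (1.62 RPM), and in 2iL 24 reads (8.67 RPM) and 0 reads. The ELA level was 9.25-fold lower in serum, with an interval of 4.35 to 23.5 that overlaps the one of miR-150-5p. In 2iL it was at least 1.70-fold lower when the 0 is taken as 3 reads in that library, and the exact interval of the fold starts at 1.28. Both strands come from the same hairpin and do not count as separate evidence.

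miR-155-5p showed the same order at lower counts. Its levels in serum were 38.7 RPM in ES cells (312 reads) and 13.0 in ELA (56 reads), and in 2iL 22.4 (62 reads) and 6.81 (4 reads). Each ES library was above both ELA libraries, although the 4 reads in ELA 2iL allow a level from 1.86 to 17.4 RPM. The ELA level was 2.98-fold lower in serum (interval 2.24 to 4.03) and 3.29-fold lower in 2iL (1.22 to 12.5). With TMM factors in place of library totals, these differences on the log2 scale were −1.49 in serum and −1.41 in 2iL. Those between the media were then −1.32 in ES cells and −1.24 in ELA, so the axes were close.

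The other 3 miRNAs above the level limit moved less at the transition than the limit of 1 on the log2 scale that the study set. miR-146a-5p was 1.34-fold higher in ELA in serum (interval 1.23 to 1.46). In 2iL its difference was not detectable at this depth (ratio 1.73, interval 0.949 to 3.02, 49 against 18 reads). miR-146b-5p, with the same seed, was 1.44-fold lower in ELA in serum (1.36 to 1.52) and 1.29-fold lower in 2iL (1.09 to 1.53). miR-142a-5p was 1.08-fold lower in ELA in serum (1.02 to 1.13) and 1.25-fold higher in 2iL (1.17 to 1.33). Under DESeq2 size factors in place of library totals, the small difference of miR-142a-5p in serum changed sign (from −0.10 to 0.09 on the log2 scale).

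Of the 4 miRNAs above the level limit, 1 was lower by at least 1 on the log2 scale in serum and 1 in 2iL, miR-150-5p in both cases, while 0 were higher in either medium. Over the 302 miRNAs, 15.6% had a lower and 8.61% a higher level in ELA from serum cells, and 23.5% had a lower and 18.9% a higher level in ELA from 2iL cells. In both media at once, 27 of the 302 were lower. The median of the 4 was −0.31 in serum and −0.02 in 2iL, and that of the 302 was 0.00 (0.0043) in serum and −0.17 in 2iL. Because miR-150-5p was known to fall when it was chosen, nothing is read from these counts.

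**Figure D2:**
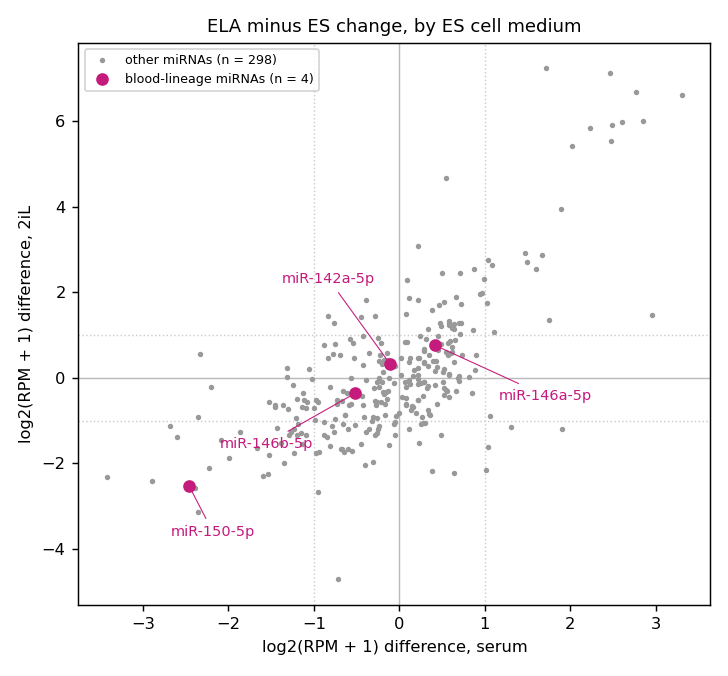
Difference in log2(RPM + 1) between ELA and ES cells in serum (horizontal axis) and in 2iL (vertical axis) for the 302 miRNAs above the level limit, with the 4 blood-lineage miRNAs in colour and dotted lines at differences of 1 in size. miR-150-5p lies at −2.46 and −2.52, and the other 3 lie inside the dotted lines.

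The medium of the ES cells was the axis along which miR-146a-5p and miR-142a-5p differed most. In ES cells miR-146a-5p measured 167 RPM in serum and 17.7 RPM in 2iL, and in ELA 223 RPM and 30.6 RPM. Both serum libraries were above both 2iL libraries. Its level in 2iL was 9.42-fold lower in ES cells (exact interval 7.08 to 12.8, 1344 against 49 reads) and 7.29-fold lower in ELA (4.59 to 12.4, 963 against 18 reads). On the log2(RPM + 1) scale the differences were −3.17 and −2.83, and 4.64% of the 302 miRNAs in ES cells and 0.993% in ELA had a lower value. Relative to the median of the 302 miRNAs they were −3.60 and −3.19.

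miR-142a-5p differed the other way. In ES cells it measured 591 RPM in serum and 1605 in 2iL, and in ELA 549 and 1999. Both 2iL libraries were above both serum libraries. The level in 2iL was 2.72-fold higher in ES cells (interval 2.61 to 2.83) and 3.64-fold higher in ELA (3.39 to 3.90). It was the most abundant of the 7 in every library apart from ES serum, where miR-146b-5p had 4834 reads against 4759, and it ranked 90 and 97 among all miRNAs in the ES cells and ELA of serum, and 63 and 53 in those of 2iL. The log2(RPM + 1) difference in ES cells, 1.44, depended on scaling. Relative to the median it was 1.00, and it was 0.87 with TMM factors, which ended the call in ES cells. In ELA the difference was 1.86, or 1.49 relative to the median, and it stayed at 1.38 or above under all 5 alternatives tried.

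miR-223-3p was close to the floor, with too few reads to say along which axis it differed most. In ES cells it had 1 read in serum (0.124 RPM) and 12 in 2iL (4.34 RPM), and in ELA 0 reads and 3 reads (5.11 RPM). The ratio of ES 2iL to ES serum was 34.9, with an interval from 5.17 to 1494 that reflects the single read. The log2(RPM + 1) difference in ES cells was 2.25, and 0.87 with a pseudocount of 5 RPM. The ELA libraries were both at or under 3 reads. miR-223-5p, its other strand, had 5 reads in ES 2iL, 4 in ELA 2iL and 0 in both serum libraries. Reads of this hairpin beyond 1 were found in the 2iL libraries. miR-451a, at 2 to 20 reads, measured 2.48 RPM in serum and 2.17 in 2iL in ES cells, and 1.62 and 3.41 in ELA. Whether other cells contributed to these reads was not tested.

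Medium differences of miR-150-5p, miR-155-5p and miR-146b-5p were smaller under library totals. miR-150-5p was 1.60-fold higher in 2iL in ES cells (interval 1.51 to 1.70) and 1.54-fold higher in ELA (1.14 to 2.05), which is 0.24 and 0.25 on the log2 scale relative to the median miRNA. These differences of 0.68 and 0.62 depended on scaling, and fell to 0.10 in ES cells and 0.18 in ELA with TMM factors, and to 0.27 and 0.14 with DESeq2 size factors. miR-150-3p differed the other way in ES cells, 1.73-fold lower in 2iL (1.11 to 2.81), a difference of −0.73 on the log2 scale that went to −1.25 with TMM factors. miR-155-5p was 1.73-fold lower in ES 2iL than in ES serum (1.31 to 2.31). In ELA its difference was not detectable at this depth (1.91-fold lower, interval from 0.705 to 7.25). With TMM factors the differences of miR-155-5p on the log2 scale went from −0.76 to −1.32 in ES cells and from −0.84 to −1.24 in ELA. miR-146b-5p was 1.62-fold lower in 2iL in ES cells (1.51 to 1.73) and 1.45-fold lower in ELA (1.24 to 1.71). Relative to the median its differences were −1.13 and −0.90, and in ES cells it passed the limit of 1 with TMM factors (−1.27) and with DESeq2 size factors (−1.10). In ELA it did so with DESeq2 size factors (−1.02).

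Under library totals the median of the 302 miRNAs was itself 0.44 higher in 2iL in ES cells and 0.37 higher in ELA. Of the 4 miRNAs above the level limit, 1 was higher by at least 1 in 2iL (miR-142a-5p) and 1 lower (miR-146a-5p), at both stages. Among the 302, 30.8% were higher and 17.5% lower in ES cells, and 22.2% were higher and 8.61% lower in ELA. With TMM factors these splits turned, to 46 higher and 81 lower in ES cells (from 93 and 53) and to 35 higher and 52 lower in ELA (from 67 and 26). The median of the 4 was −0.01 in ES cells and 0.04 in ELA, as members on opposite sides balanced each other.

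**Figure D3:**
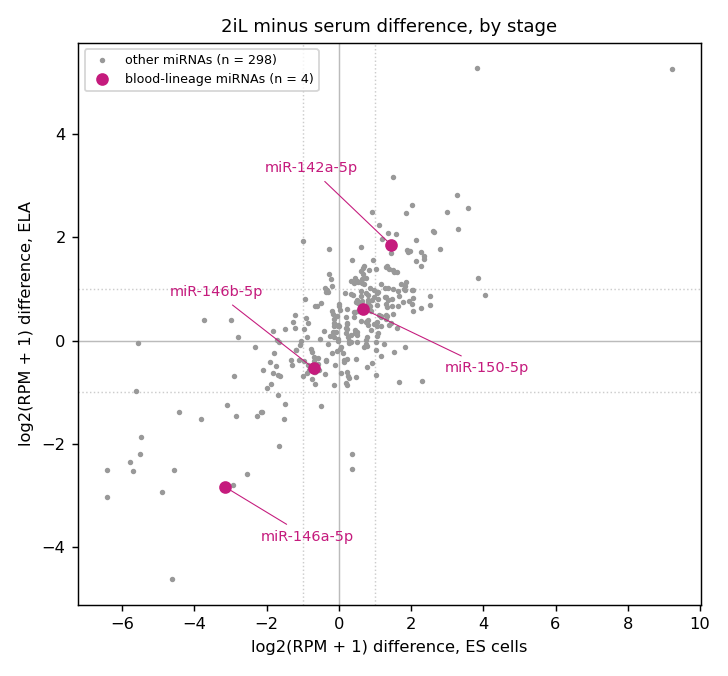
Difference in log2(RPM + 1) between 2iL and serum in ES cells (horizontal axis) and in ELA (vertical axis) for the 302 miRNAs above the level limit, with the 4 blood-lineage miRNAs in colour and dotted lines at differences of 1 in size. miR-142a-5p (1.44 and 1.86) and miR-146a-5p (−3.17 and −2.83) lie beyond the dotted lines on opposite sides under library totals, and with TMM factors miR-142a-5p falls to 0.87 in ES cells.

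The miR-146 pair carries 1 seed from 2 loci, and its makeup differed with the medium. In ES cells miR-146a-5p was 21.8% of the reads of the pair in serum (Wilson interval 20.7 to 22.8) and 4.56% in 2iL (3.46 to 5.98). In ELA it was 34.8% in serum (33.1 to 36.6) and 9.63% in 2iL (6.18 to 14.7). These shares are ratios within a library and do not depend on scaling. miR-146b-5p was the larger of the pair in all 4 libraries, by 1.87-fold in ELA serum and by 20.9-fold in ES 2iL. The sum of the pair was 767 RPM in serum and 389 RPM in 2iL in ES cells, and 641 RPM and 318 RPM in ELA. As a fold between its highest and lowest library, the sum spanned a narrower range than miR-146a-5p did. Reads of miR-146a-5p assigned to miR-146b-5p, or the reverse, would alter these shares, and this was not tested.

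Both arms of miR-150 are among the 7, so its arm use, too, is a description of values known when they were chosen. For miR-150 in ES cells the 5p strand held 96.0% of the reads in serum (Wilson interval 95.3 to 96.7) and 98.5% in 2iL (97.8 to 99.0). In ELA it held 97.6% in serum (95.1 to 98.8) and 100% in 2iL (93.9 to 100, 59 reads). The 2 ES libraries differed in this share by more than their counting intervals, and the ELA libraries overlapped both. The 5p strand of miR-155 held 96.0% of the reads in ES serum (93.3 to 97.6) and from 80.0% (4 of 5 reads in ELA 2iL, exact interval 28.4 to 99.5) to 98.2% (90.7 to 99.7) in the other libraries. The 3p strands of miR-146a and miR-146b had at most 1 and 4 reads in a library. The miR-223 hairpin was read on both arms, with 5 of 17 reads on 5p in ES 2iL (exact interval 10.3% to 56.0%).

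miR-142a stood apart, with 1174 to 4759 reads on the 5p strand and 0 on the 3p strand in every library. In blood cells both strands are abundant. RefSeq places mature miR-142a-3p across 20 bases of miR-142b, a mature miRNA annotated on the opposite strand, and miR-142b was also listed at 0 throughout. Zeros were also counted among the other miRNAs with such an overlap. Of 57 listed miRNAs that overlap a mature miRNA on the opposite strand, 45 (78.9%) were at 0 in all libraries and 2 (3.51%) reached over 10 RPM in any, against 557 (35.6%) and 428 (27.3%) of 1566 other miRNAs with a position. Among the 57 were miR-24-3p, with 5 reads in all 4 libraries together, and miR-129-5p, with 677. Whether the miRNAs at 0 are made in these cells was not tested. Whether the counting used strand or dropped reads that fall on overlapping features was not stated, and its part was not tested. The 0 of miR-142a-3p is given as listed, and the arm use of miR-142a cannot be read from it. None of the 6 miRNAs with a sequence above overlapped another in this way.

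**Figure D4:**
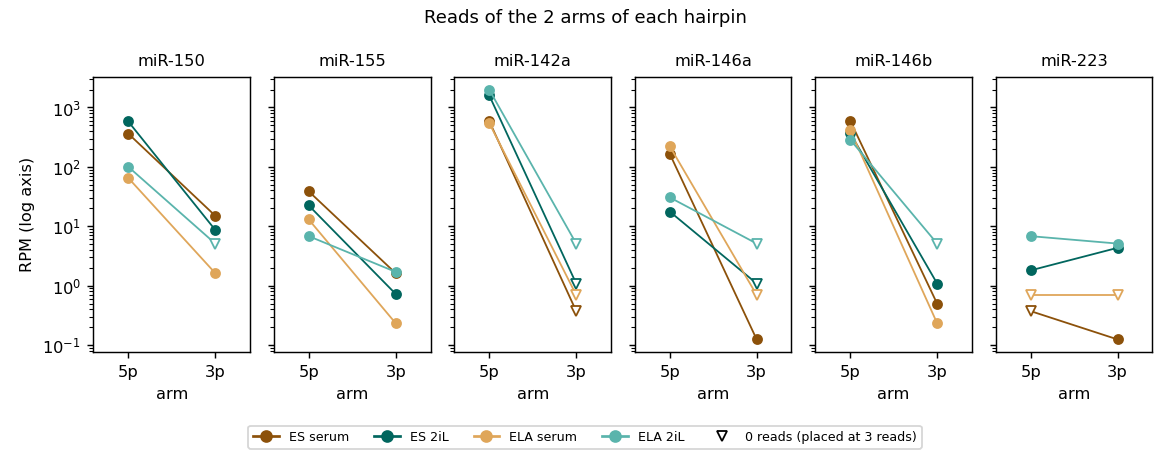
RPM (log axis) of the 5p and 3p strands of the 6 hairpins in the 4 libraries, with open triangles at the level of 3 reads where a library had 0 reads. The 5p strand lies above the 3p strand in every library for the hairpins other than miR-223, and all miR-142a-3p values are at 0 reads.

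The pattern of miR-150-5p over the 4 libraries was compared with those of the 301 other miRNAs above the level limit, as the Euclidean distance between log2(RPM + 1) profiles, each centred on its own mean. The closest were mmu-miR-669c-5p (distance 0.57), mmu-miR-467d-5p (0.67), mmu-miR-22-3p (0.70), mmu-miR-467a-3p (0.79) and mmu-miR-467c-5p (0.86), against a median distance of 2.62. All 5 were higher in both ES libraries than in both ELA libraries and highest in ES 2iL. miR-22-3p, for example, went from 6896 RPM in ES cells to 2369 in ELA in serum, and from 15475 to 3265 in 2iL. The miR-467 and miR-669 miRNAs come from families of near-identical hairpin copies, whose reads may be divided among the copies. The same 5 were found with a pseudocount of 5 RPM. The other blood-lineage miRNAs above the limit were farther away, miR-146b-5p at 2.41 (position 121), miR-142a-5p at 2.79 (position 170) and miR-146a-5p at 4.77 (position 281 of 301).

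**Figure D5:**
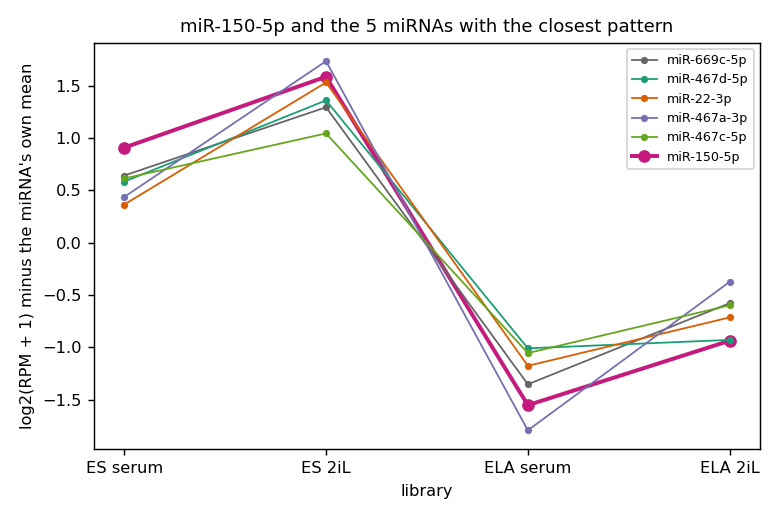
log2(RPM + 1) of miR-150-5p and of the 5 miRNAs closest to it in each library, minus each miRNA's own mean over the 4 libraries, with lines joining the values of a miRNA. All 6 are highest in ES 2iL and lower in both ELA libraries, with distances to miR-150-5p of 0.57 to 0.86.

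A list of further blood miRNAs had 13 listed members, of which 4 (the miR-486a and miR-486b arms) were at 0 in all libraries, 6 had over 3 reads in a library and 1 met the level limit. Over all 1907 miRNAs, 705 (37.0%) were at 0 and 302 (15.8%) met the limit, so nothing is read from these counts. This was miR-342-3p, which is made from an intron of Evl and known from lymphocytes. It measured 368 RPM in ES cells and 352 in ELA in serum, and 325 and 300 (299.6) in 2iL, so 0 of 1 passed the limit of 1 in any comparison. The summed level of the list ran from 342 to 408 RPM, of which miR-342-3p was the largest part in each library.

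The markers of other cell types gave these levels. The 2 endothelial arms of miR-126a and both arms of the liver miRNA miR-122 were at 0 in all libraries, and miR-126a-3p is among the strand-overlapping miRNAs above. The 5 miRNAs of mesenchyme and fibroblasts summed to 71.7 RPM in ES cells and 31.8 in ELA in serum, and to 81.7 and 85.1 in 2iL, led by miR-199a-3p. The 4 muscle miRNAs summed to 11.9 and 49.2 RPM in serum and to 0 and 73.2 RPM in 2iL, led by miR-133a-3p. The 3 neuronal miRNAs summed to 433 RPM in ES cells and 297 in ELA in serum, and to 301 and 264 in 2iL, with members that went different ways. In 2iL miR-9-5p measured 156 RPM in ES cells and 218 in ELA, and miR-124-3p 142 and 44.3. Whether cells of these types contributed to the levels of the 7 miRNAs was not tested.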

How the data were processed

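Small RNA-seq was done on 4 libraries, 1 per group. The authors trimmed adaptors with Trimmomatic, mapped reads to mm9 with Bowtie, assigned them to miRBase 20 mature miRNAs with featureCounts and deposited RPM values (reads per 1000000 assigned reads), and CASAVA 1.8 is named in the submitters' processing notes. The other versions, the treatment of strand and of reads matching several places are not given in the sources used here.

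Sample titles gave the groups and matched the names of the columns. In the description field ES 2iL and ELA serum are exchanged, and it was not used. Which axis a difference is assigned to therefore rests on the titles. Each column sums to 1000000, and 100% of the values above 0 were whole multiples of 1 read (tolerance 0.001 reads), which gave the reads behind each value. RPM gives the share a miRNA has in its library and no amount per cell.

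Differences are of log2(RPM + 1), which understates changes of low miRNAs, while folds are ratios of RPM whose exact (Clopper-Pearson) intervals come from the reads. A difference was called at 1 or more in size, among miRNAs whose mean log2(RPM + 1) was 5 or more. limma 3.58.1 (stage and medium as terms, 1 residual degree of freedom) was run over 599 miRNAs (2 or more libraries with 10 or more reads), and edgeR 4.0.16 on the recovered reads was added after the data had been seen. Both were tested on simulated reads with known changes. The miRNAs get no p-value. They, and the lists, were chosen with earlier results of these data known. Named beside them are their other arms, miRNAs of the same seed, the 5 closest patterns to mmu-miR-150-5p and the leading miRNAs of each marker list. Positions are from GENCODE vM1 (mm9) and sequences and overlaps from RefSeq (GRCm38.p6). R 4.3.3, DESeq2 1.42.0 (size factors), Python 3.11.15 and scipy 1.17.1 were used, and 0 columns were left out.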

Additional observations from a re-analysis of the deposited data

Results flagged for a closer look

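miR-142a-5p moved in opposite directions at the ES–ELA transition in the 2 media, by −0.10 on the log2(RPM + 1) scale from serum cells and by 0.32 from 2iL cells. The changes lay 0.42 apart. Both counting intervals excluded no change. The difference between the media was not tested, since each change compares 1 library with 1 library, and with DESeq2 size factors both changes were positive.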

How the results depend on the processing

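Of 28 differences (7 miRNAs, 4 pairs of libraries), 27 kept their direction under all 5 alternatives (TMM factors, DESeq2 size factors, totals without the 5 most abundant miRNAs, pseudocounts of 0.5 and 5 RPM). The exception was miR-142a-5p at the transition in serum, 0.0914 with DESeq2 size factors, where the scaling changed the sign. For the 16 differences of the 4 miRNAs above the level limit, 13 kept their side of the limit of 1. The others were miR-142a-5p (0.87 with TMM) and miR-146b-5p at both stages, given above. The other 12 were under the level limit and so not called, and those of miR-155-5p and miR-150-3p between the media, and of miR-223-3p in ES cells, crossed 1 in size. The difference of miR-150-5p ran from −2.53 to −2.27 in serum and from −2.53 to −2.28 in 2iL.

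Counts over all miRNAs moved more. limma called 0 of 599 for stage (125 at an unadjusted p under 0.05) and 0 for medium (176). It called 28 and 55 with TMM, 84 and 112 with DESeq2 size factors, 9 and 38 with a pseudocount of 5 RPM, and 99 and 130 without the filter (1202 tested). edgeR called 39 and 64 with TMM factors, and 0 (129 at an unadjusted p under 0.05) and 39 with library totals. These fits were not used for the miRNAs described.

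With a filter of 10 reads in 2 or more libraries (599 miRNAs), 55 were higher and 103 lower in ELA in serum, 114 and 179 in 2iL, and in 2iL against serum 184 and 112 in ES cells and 143 and 88 in ELA. In ES cells 2iL against serum gave 46 higher and 81 lower with TMM, 57 and 74 with DESeq2 size factors and 71 and 67 without the 5 most abundant. In ELA it gave 35 and 52 with TMM, 32 and 55 with DESeq2 size factors, and 75 and 26 without the 5 most abundant. At the transition the share of higher calls in serum went from 35.6% to 49.3% with DESeq2 size factors and to 28% without the 5 most abundant. In 2iL it went from 44.5% to 59.3% without the 5 most abundant. Each library is unreplicated, and in ELA 2iL, at 5.11 RPM for 3 reads, miR-150-3p, miR-155-5p and miR-223-3p could not be placed closely.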

Other observations

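mmu-miR-147-3p, which is induced in stimulated macrophages and was on the list of further blood miRNAs, stood out in ES 2iL with 57.8 RPM (160 reads). It measured 3.60 RPM in ES serum (29 reads), 2.09 in ELA serum (9 reads) and 5.11 in ELA 2iL (3 reads). Its other arm, mmu-miR-147-5p, had 5 reads in ES 2iL, 2 in ES serum and 0 in both ELA libraries. Both miRNAs were singled out after their values had been seen.

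mmu-miR-133a-3p of the muscle list was at 0 reads in ES 2iL and at 42 reads (71.5 RPM) in ELA 2iL. In serum it went from 10.4 RPM (84 reads) to 46.6 RPM (201 reads).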
